A study of Homo sapiens with 16 samples.

Results

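The 10 genes described here make, break down or sense prostaglandins: PLA2G4A, PTGS1, PTGS2, PTGES, PTGES2, PTGES3, PTGIS, HPGD, PTGER2 and PTGER4. They were chosen by name, with earlier results of these data known. Each was found by gene identifier among the 60649 genes of the count table. All 10 passed the filter on low counts that left 19103 genes for testing, HPGD through its young libraries alone. The RNA came from ASC52telo, an immortalized line of human adipose-derived mesenchymal stem cells (MSCs). Because this is a single telomerase-immortalized line, the replicates show the spread between cultures of 1 line and not between donors. All cells, controls included, grew in α-MEM with fetal bovine serum. Mitomycin C (MmC), an alkylating agent that crosslinks DNA, was given at 1.5 µg/mL for 18 h to make senescent MSCs, and cells without MmC are called "young". GDF11, a cytokine of the TGF-β superfamily, was added at 10 ng/mL over the next 10 days to young and to senescent cells. There were 4 biological replicates in each group. Young cells are MmC-/GDF11- without and MmC-/GDF11+ with the cytokine, and senescent cells are likewise MmC+/GDF11- or MmC+/GDF11+. The comparisons ask how these genes differ between young and senescent MSCs, and whether added GDF11 moves them in either state.

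Prostaglandins are lipid signals made on demand. A phospholipase frees arachidonic acid from membranes, a cyclooxygenase (PTGS1 or PTGS2) turns it into the intermediate PGH2, and a terminal synthase makes the final product, such as PGE2 (PTGES, PTGES2, PTGES3) or prostacyclin (PTGIS). PGE2 is inactivated by 15-hydroxyprostaglandin dehydrogenase (HPGD) and acts on neighbouring cells through receptors, of which EP2 (PTGER2) and EP4 (PTGER4) raise cAMP. In MSCs, PGE2 is known as a secreted mediator that acts on immune cells.

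The libraries held between 71275337 and 144204979 counts. Levels are given as CPM (counts scaled to each library's effective size by TMM), or as RPKM (the same per kilobase of exon) where genes are compared with each other. Replicate 1 stood apart in both MmC-treated groups. The root mean square log2 difference of its genes from the other 3 libraries of its group was 0.671 in MmC+/GDF11- and 0.691 in MmC+/GDF11+, against 0.343 to 0.411 for replicates 2 to 4. Among young libraries it was 0.555 and 0.489 for replicate 1 and 0.371 to 0.430 for the others. Each member's difference after MmC is therefore given with and without replicate 1, and the other lists as counts. The study names technical issues and batch effects among its limits, and the sources used here do not say which libraries these touched. CDKN1A, the cell cycle inhibitor p21 and a known marker of senescence, lay at 166 to 375 CPM in the 8 young libraries and at 1039.7 to 2031 CPM in the 8 treated libraries, so no library went against its MmC label. The 6 MSC markers NT5E, THY1, ENG, CD44, ITGB1 and PDGFRB summed to between 5089.9 and 6698 CPM in every library. Markers of macrophages and leukocytes (PTPRC, CD14, CD68, CSF1R, LYZ and TYROBP) summed to 2.13 to 3.24 CPM in young and 3.82 to 5.96 CPM in treated libraries, with TYROBP at 0 in all 8 young libraries. The 4 endothelial markers summed to 7.82 to 11.3 CPM and 8.44 to 21.8 CPM, and the 3 epithelial and 3 adipocyte markers stayed at or below 1.29 and 2.49 CPM. The part of these markers in the differences described next was not tested. In such bulk samples, fewer cells of a type and less RNA per cell cannot be told apart.

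In cells without added GDF11, 4 of the 10 genes passed the threshold for MmC in a fit without a replicate term. PTGS2 and PTGES rose and PTGES3 fell. HPGD was lower, but it entered testing only through its young libraries, so its call is no test. The other 6 genes did not pass the threshold (edgeR quasi-likelihood test over all 16 libraries, Benjamini-Hochberg adjusted p under 0.05). In the same comparison 45.3% of all genes tested were called, 22.9% higher and 22.4% lower, so a share of 4 in 10 is near the background and the count by itself is no result about these genes. Leaving out HPGD, whose treated libraries all lay under the filter's cutoff of 0.116 CPM, 3 of 9 were called. The fold changes of PTGS2, PTGES and HPGD were the largest of the 10. With HPGD included, the count rose to 6 of 10 without replicate 1 (background 51.7%). With the replicate number as a block it was 8 of 10, 4 higher and 4 lower, HPGD among the latter (background 57.9%). PLA2G4A, PTGES2, PTGIS and PTGER4 then passed as well. By the rule given with the processing, replicate numbers pair the libraries of this comparison. With GDF11 present, PTGS2, PTGES and PTGES3 were called in the same directions, and HPGD was again lower. PTGER4, not called without GDF11, passed here with a rise. Leaving out HPGD again, 3 of 9 rose and 1 fell. There 46.7% of all genes tested were called, 23.4% higher and 23.3% lower. Without replicate 1, 6 of the 10 members passed, HPGD included (background 52.6%). The 2 comparisons use separate libraries that carry the same replicate numbers.

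**Figure D1:**
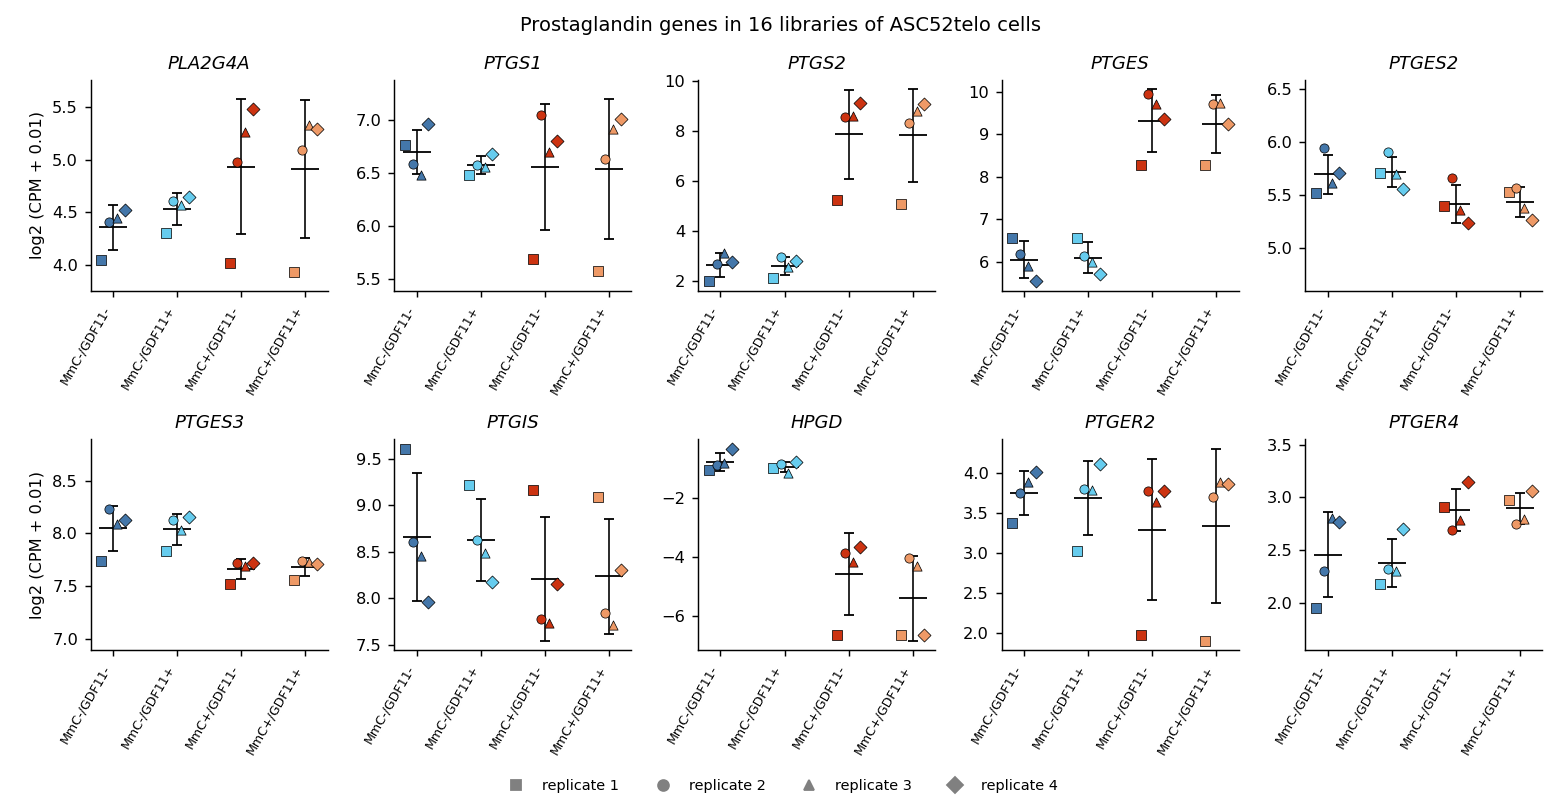
Level of each of the 10 genes in all 16 libraries, as log2 (CPM + 0.01) on the y axis, by group on the x axis, with marker shape giving the replicate number and the black bars the mean and SD of the 4 replicates. PTGS2 and PTGES lie higher and HPGD lower in all 8 MmC-treated libraries than in any young library, and replicate 1 (squares) is the lowest treated library for PTGS2 and PTGES. The y axes differ between genes.

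PTGS2 (ENSG00000073756, chromosome 1, 186671791 to 186680922, minus strand, in hg38 as all positions here) encodes the inducible cyclooxygenase COX-2. Its level in MmC-/GDF11- replicates 1 to 4 was 4.00, 6.41, 8.78 and 6.86 CPM, and in MmC+/GDF11- it was 37.7, 379, 388 and 559.6 CPM. The groups did not overlap, as was the case for 37.3% of all genes tested, and replicate 1 was far below the other 3 treated libraries. The rise was 5.71 ± 0.827 on the log2 scale (SE, n = 4 per group), or 52.3-fold with a 95% interval of 15.4 to 177 (edgeR quasi-likelihood test, adjusted p = 6.80e-05). Without replicate 1 it was 60.2-fold (adjusted p = 2.79e-10). With GDF11 the young libraries held 4.35, 7.78, 5.92 and 7.05 CPM and the treated ones 34.4, 323, 453 and 541 CPM. That is a rise of 53.8-fold (interval 15.8 to 183, adjusted p = 6.39e-05), and 63.6-fold without replicate 1. Replicate 1 was the low treated library in this comparison too, and every young library stayed below 9 CPM.

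PTGS1 (ENSG00000095303, chromosome 9, 122370530 to 122395703, plus strand) encodes the constitutive cyclooxygenase COX-1. It lay at 109, 96.0, 89.3 and 125 CPM in MmC-/GDF11- and at 51.5, 132, 104 and 112 CPM in MmC+/GDF11-. The groups overlapped, and the lowest value was again replicate 1 after MmC. The difference was -0.07 ± 0.277 on the log2 scale with an interval of -0.66 to 0.52 (adjusted p = 0.859 in edgeR's test), and with GDF11 it was 0.06 (-0.53 to 0.65, adjusted p = 0.884). The sign of these small differences changes with the settings, so no direction is given. Without replicate 1 they were 0.16 and 0.26. ENSG00000269970, a non-coding RNA gene that overlaps PTGS1 on the same strand without sharing exon bases, had 2 to 21 counts a library.

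**Figure D2:**
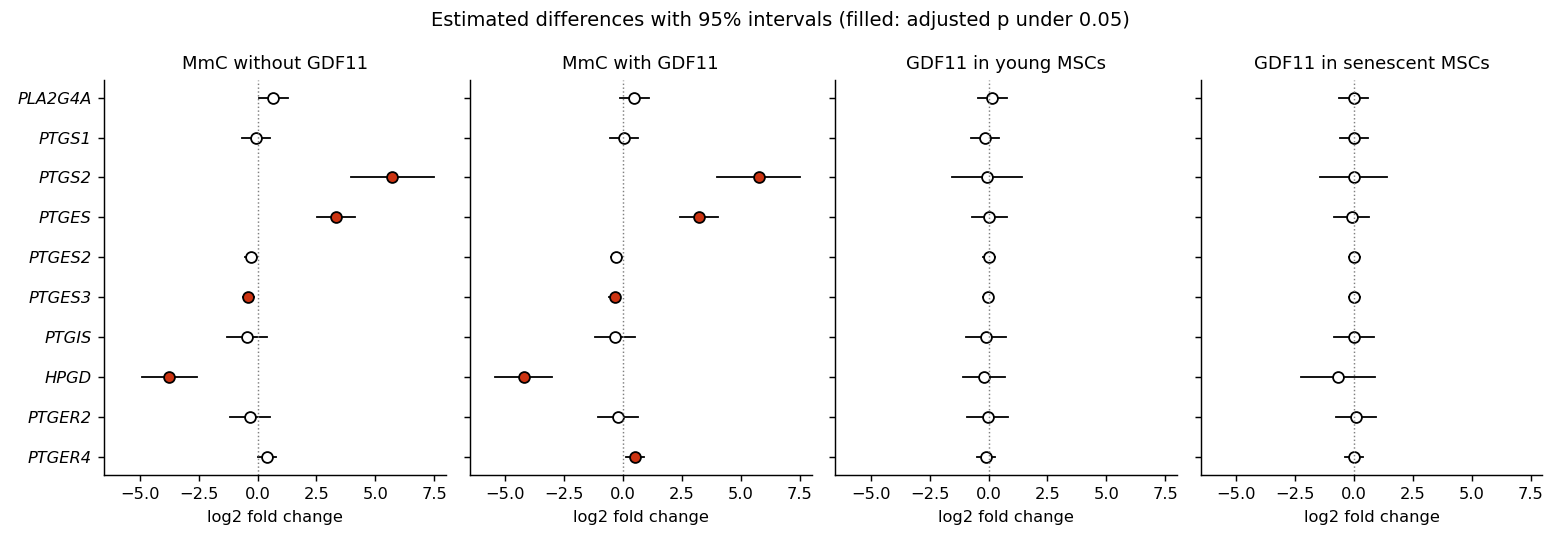
Estimated log2 fold change (x axis) of the 10 genes (y axis) in the comparisons of MmC-treated with young cells, without and with GDF11, and of cells with and without GDF11, young and senescent. Points are estimates from edgeR, lines are 95% intervals and filled points passed the adjusted threshold. PTGS2 and PTGES stand far to the right and HPGD far to the left in both MmC panels, and all 20 intervals in the GDF11 panels include 0.

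The balance of the 2 cyclooxygenases shifted accordingly. Per kilobase, PTGS2 was at 0.0389 to 0.104 times the level of PTGS1 in MmC-/GDF11- and at 0.0512 to 0.0860 times in MmC-/GDF11+. In MmC+/GDF11- the ratio was 0.772 in replicate 1 and 3.02 to 5.28 in the other 3 libraries, and in MmC+/GDF11+ it was 0.764 and 3.44 to 4.41. PTGS2 thus made up 3.74% to 9.39% of the summed RPKM of both genes in young cells and 43.3% to 84.1% after MmC. Replicate 1 was the library in which PTGS1 still exceeded PTGS2 after treatment.

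**Figure D3:**
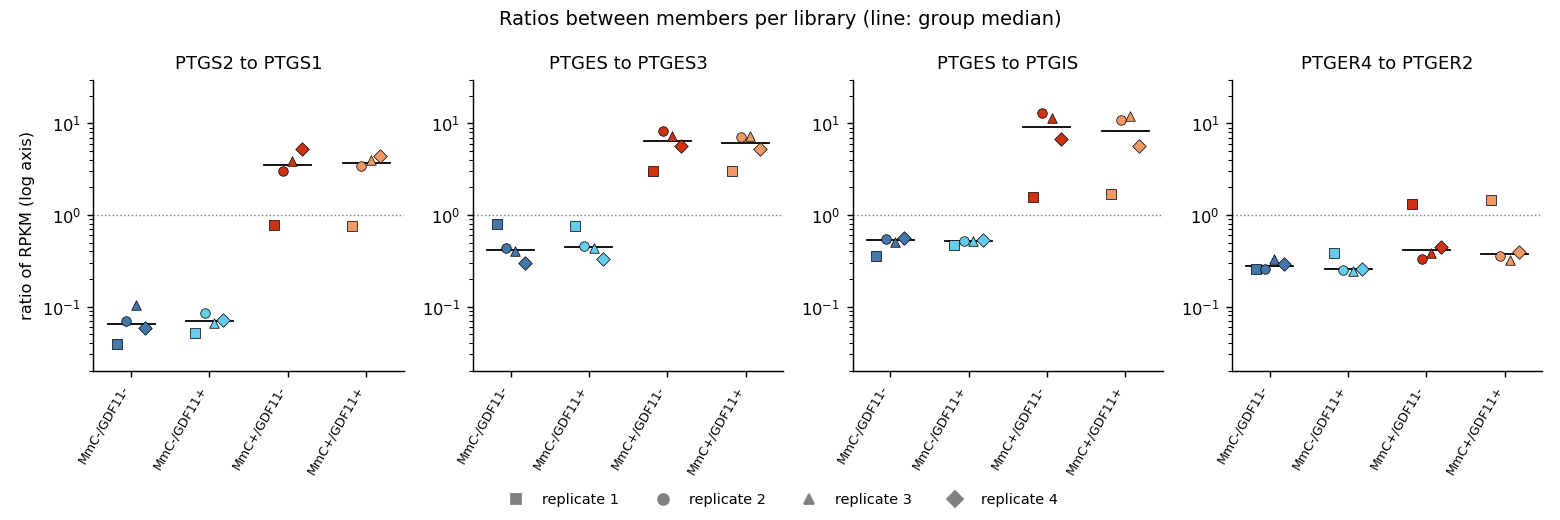
Ratio of RPKM between pairs of members in each library (y axis, log scale, dotted line at 1), by group (x axis), with marker shape giving the replicate number and the line the group median. The PTGS2 to PTGS1, PTGES to PTGES3 and PTGES to PTGIS ratios are higher in every MmC-treated library than in any young library, whereas PTGER4 to PTGER2 exceeds 1 only in replicate 1 after MmC.

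PTGES (ENSG00000148344, chromosome 9, 129738331 to 129753042, minus strand) encodes microsomal PGE synthase 1, the inducible PGE2 synthase that works with COX-2. It lay at 94.7, 73.2, 60.5 and 46.9 CPM in MmC-/GDF11- and at 309, 978, 831 and 660.2 CPM in MmC+/GDF11-. The groups did not overlap, as for 37.3% of all genes tested, and replicate 1 was the highest young and the lowest treated library. The rise was 3.33 ± 0.382 on the log2 scale, or 10.1-fold with an interval of 5.74 to 17.7 (edgeR, adjusted p = 8.22e-06), and 13.7-fold without replicate 1. With GDF11 the values were 95.3, 70.8, 63.7 and 52.5 CPM in young and 313, 842, 852 and 608 CPM in treated cells. These gave a 9.27-fold rise (interval 5.29 to 16.2, adjusted p = 1.09e-05), and 12.3-fold without replicate 1. Every treated library again lay above every young one, in a comparison where 41.5% of all genes tested had groups without overlap.

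The sequences just upstream of the RefSeq starts of PTGS2 and PTGES, the 2 genes with the largest rises, are shown beside these values. They are the 250 bases before each RefSeq transcript start (build GRCh38.p14, 5′ to 3′ on the gene's own strand), at chr1:186680424-186680673 and chr9:129753043-129753292, both on the minus strand. Capitals in PTGS2 mark, from left to right, a match to the NF-kB pattern (GGG, any 2 bases, T, any 2 bases, CC), to the C/EBP pattern TTNNGCAA, the cAMP response element half-site TGACG on the opposite strand, and the TATA box TATAAA. Capitals in PTGES mark the Sp1 pattern GGGCGG at 2 places and the EGR1 pattern GCGTGGGCG, which overlaps the second of them.
PTGS2: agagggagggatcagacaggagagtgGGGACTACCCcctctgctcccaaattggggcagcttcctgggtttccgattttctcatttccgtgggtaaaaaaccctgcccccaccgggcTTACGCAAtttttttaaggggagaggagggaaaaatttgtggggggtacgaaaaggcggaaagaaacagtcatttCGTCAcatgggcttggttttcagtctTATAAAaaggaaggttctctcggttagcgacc
PTGES: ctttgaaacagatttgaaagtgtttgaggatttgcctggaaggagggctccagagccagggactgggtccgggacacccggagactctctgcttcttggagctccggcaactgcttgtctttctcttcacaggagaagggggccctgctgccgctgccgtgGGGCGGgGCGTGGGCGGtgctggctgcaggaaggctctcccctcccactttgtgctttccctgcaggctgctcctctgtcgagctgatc
Counted from the start, the PTGS2 matches lie 224 to 215, 133 to 126, 58 to 54 and 32 to 27 bases upstream, and the PTGES matches 89 to 84, 82 to 74 and 78 to 73 bases upstream. In GENCODE the PTGS2 gene extends to 186680922, so its RefSeq window lies inside those gene bounds. RefSeq windows were found for 9 of the 10 genes, PTGIS being the one without. PTGS2 alone among these 9 held the TATA box and the C/EBP pattern in its upstream bases, patterns that 6.80% and 9.05% of 35116 windows of the same length held. The NF-kB pattern was found in PTGS2, PTGER4 and PTGES3 and in 19.7% of all windows, and the half-site in PTGS2, HPGD, PTGES3 and PTGER2 and in 21.2%. The Sp1 pattern was in 42.6% of windows. The EGR1 pattern was in 0.720% of windows, among them those of PTGES and PTGES2. The full cAMP response element TGACGTCA and the AP-1 pattern TGANTCA had no match in any of the members' windows, against 1.65% and 6.57% of all windows. All patterns were searched on both strands except the TATA box. Such matches are letters in a window, and binding was not measured.

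PACERR, a long non-coding RNA on the opposite strand, overlaps 219 bases (3.99%) of the PTGS2 exons, and 73 of the upstream bases shown lie in a PACERR exon. Whether counting used strand is not given in the sources used here. PACERR held 6 to 22 counts in young and 25 to 104 counts in treated libraries, against 308 to 66503 for PTGS2.

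PTGES2 (ENSG00000148334, chromosome 9, 128120693 to 128128462, minus strand) and PTGES3 (ENSG00000110958, chromosome 12, 56663341 to 56688408, minus strand) encode the other PGE2 synthases, and PTGES3 is also the HSP90 co-chaperone p23. PTGES3 lay at 214, 299, 272 and 280.0 CPM in MmC-/GDF11- and at 184, 210.1, 207 and 210.1 CPM in MmC+/GDF11-. All treated libraries were below all young ones, by a small margin. Groups without overlap were found for 37.3% of all genes tested. PTGES3 fell by 0.39 ± 0.105 on the log2 scale, to 0.762 times its level (edgeR, adjusted p = 0.00636), and with GDF11, where the values were 228, 279.6, 262 and 285 against 188, 213, 212 and 209.5 CPM, to 0.779 times (adjusted p = 0.0106). Without replicate 1 these were 0.737 and 0.769 times. Both calls are lost when all libraries numbered 3 are left out, with adjusted p = 0.0657 and 0.0823. The first is also lost without replicate 2 (0.0518) and the second without replicate 4 (0.0891). Part of PTGES3 is repeated in the pseudogene PTGES3P1, which holds 7.97% of its 31-base words and had 333 to 594 counts a library, so some reads may have been split between them. PTGES3P3, PTGES3P4 and PTGES3P2 had 39 to 122, 3 to 37 and 0 to 1 counts. PTGES2 lay at 45.7, 61.7, 48.8 and 52.2 CPM in MmC-/GDF11- and at 42.1, 50.4, 41.0 and 37.6 CPM in MmC+/GDF11-. These ranges overlapped, although PTGES2 was lower after MmC in 4 of 4 pairs without GDF11. With GDF11 the replicate numbers are not shown to pair the libraries, so pairs are not counted there. The difference of -0.28 ± 0.115 did not pass (adjusted p = 0.0546), nor did that with GDF11 (-0.28, adjusted p = 0.0534). With the replicate number as a block the first had an adjusted p of 0.00273, and without replicate 1, at 0.794 times, it was 0.0493. The second was 0.803 times without replicate 1 (adjusted p = 0.0594). The first also passed without MmC-/GDF11- replicate 1 alone (0.0350) and without MmC+/GDF11- replicate 2 alone (0.0215).

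Among the 3 PGE2 synthases, PTGES was the one that gained ground. Its RPKM was 0.301 to 0.796 times that of PTGES3 in young cells without GDF11 and 3.01 to 8.37 times in MmC+/GDF11-. Against PTGES2 the ratio was 2.89 to 6.68 and then 23.6 to 65.1. The corresponding ratios with GDF11 were 0.331 to 0.750 and 2.99 to 7.22 for PTGES3, and 3.60 to 5.89 and 21.8 to 66.2 for PTGES2.

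PTGIS (ENSG00000124212, chromosome 20, 49503874 to 49568137, minus strand) encodes prostacyclin synthase, which competes with the PGE2 synthases for PGH2. It lay at 778, 390.1, 351 and 249 CPM in MmC-/GDF11- and at 572, 219.6, 212 and 285 CPM in MmC+/GDF11-. Replicate 1 was far above the other libraries in each of the 4 groups, with 595 CPM in MmC-/GDF11+ and 543 CPM in MmC+/GDF11+. The remaining libraries with GDF11 held 396, 359 and 288 CPM when young and 229, 209.6 and 315 CPM after MmC, so the groups overlapped. The difference of -0.46 ± 0.403 did not pass (edgeR, adjusted p = 0.380), and neither did the one with GDF11 (-0.34, adjusted p = 0.520). Without replicate 1 both were -0.47, the first with an adjusted p of 0.0527. With the replicate block the first had an adjusted p of 0.0378. PTGIS was lower after MmC in 3 of 4 pairs without GDF11, replicate 4 being the exception. As PTGES rose, its RPKM went from 0.359 to 0.555 times that of PTGIS in MmC-/GDF11- to 1.59 to 13.1 times in MmC+/GDF11-.

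PLA2G4A (ENSG00000116711, chromosome 1, 186828949 to 186988981, plus strand) encodes cytosolic phospholipase A2 alpha, which frees the arachidonic acid. It lay at 16.5, 21.3, 21.8 and 23.0 CPM in MmC-/GDF11- and at 16.2, 31.4, 38.3 and 44.5 CPM in MmC+/GDF11-. The 3 treated libraries numbered 2 to 4 were above all young ones, and replicate 1 was below them. The difference of 0.66 ± 0.288 did not pass (1.58-fold, edgeR, adjusted p = 0.0734). It passed without replicate 1, at 1.73-fold (adjusted p = 4.61e-05), and with the replicate block (adjusted p = 0.0104). With GDF11 the values were 19.7, 24.4, 23.7 and 24.9 CPM against 15.3, 34.1, 40.1 and 39.1 CPM. That difference of 0.47 did not pass either (adjusted p = 0.191), and was 1.55-fold without replicate 1 (adjusted p = 2.93e-04).

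HPGD (ENSG00000164120, chromosome 4, 174490175 to 174523154, minus strand) encodes the dehydrogenase that starts prostaglandin breakdown. It was barely expressed, with 0.468, 0.528, 0.550 and 0.771 CPM in MmC-/GDF11- and 0, 0.0583, 0.0447 and 0.0691 CPM in MmC+/GDF11-. In counts these are 36, 51, 42 and 80 against 0, 5, 4 and 6, so the groups did not overlap, as for 37.3% of all genes tested. HPGD passed the filter on low counts only through the young groups, where it is high, so its levels are given as a description with no test. Summed over the libraries, 209 counts against 15 gave a level that was 14.2-fold lower after scaling (interval 8.43 to 25.9, counting error only). With GDF11 the young libraries held 35, 40, 34 and 51 counts and the treated ones 0, 5, 6 and 0. Their sums of 160 and 11 gave a 19.1-fold lower level (interval 10.4 to 38.9). The fitted differences were -3.75 and -4.22 on the log2 scale, and -3.40 and -3.94 without replicate 1. The 3 libraries without a count allow at most 0.0304, 0.0410 and 0.0320 CPM, the level of 3 counts. An antisense non-coding RNA over HPGD, ENSG00000251584, had 0 to 4 counts a library.

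PTGER2 (ENSG00000125384, chromosome 14, 52314305 to 52328598, plus strand) and PTGER4 (ENSG00000171522, chromosome 5, 40679915 to 40693735, plus strand) encode the EP2 and EP4 receptors for PGE2. PTGER4 lay at 3.86, 4.94, 6.96 and 6.81 CPM in MmC-/GDF11- and at 7.48, 6.46, 6.88 and 8.85 CPM in MmC+/GDF11-. These groups overlapped, and the difference of 0.39 ± 0.176 did not pass (1.31-fold, edgeR, adjusted p = 0.0788), although it did with the replicate block (adjusted p = 0.0155) and without MmC-/GDF11- replicate 3 or 4 (0.0373 and 0.0390). Without replicate 1 it was 1.19-fold (adjusted p = 0.232). With GDF11, 4.53, 4.99, 4.92 and 6.50 CPM in young cells stood against 7.84, 6.72, 6.95 and 8.34 CPM after MmC. All treated libraries were above all young ones, as for 41.5% of genes in this comparison, and the 1.42-fold rise passed (interval 1.10 to 1.85, adjusted p = 0.0264). Without replicate 1 it was 1.34-fold (adjusted p = 0.0451). This call is lost without any one of MmC-/GDF11+ replicates 1, 2 or 3 or MmC+/GDF11+ replicate 4 (adjusted p = 0.0636, 0.0560, 0.0599 and 0.0626), and without all libraries numbered 2 or 3 (0.0827 and 0.0891). The PTGER4 rises with and without GDF11 differed by 0.12 on the log2 scale (the interaction), with an interval of -0.41 to 0.64. They were thus not shown to differ. PTGER2 lay at 10.3, 13.5, 14.8 and 16.1 CPM in MmC-/GDF11- and at 3.90, 13.7, 12.5 and 13.7 CPM in MmC+/GDF11-. Replicate 1 after MmC was the low library, and likewise with GDF11, where the values were 8.13, 13.9, 13.8 and 17.4 CPM in young and 3.72, 12.9, 14.9 and 14.6 CPM in treated cells. Neither difference passed, at -0.32 (interval -1.18 to 0.54, adjusted p = 0.544) without GDF11 and -0.21 (-1.07 to 0.65, adjusted p = 0.702) with it. With 1 surrogate variable in the fit both were called lower, at -0.72 (adjusted p = 1.14e-04) and -0.53 (adjusted p = 0.00146). Without replicate 1 they were -0.15 and -0.09, and the second turned to 0.09 when MmC+/GDF11+ replicate 1 alone was left out. The pseudogene PTGER4P2 had 0 to 8 counts a library, and TTC33, which overlaps PTGER4 on the opposite strand, shares no exon bases with it.

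Ordered by RPKM, the young cells had PTGIS at 79.4 ± 41.6 (SD, n = 4, MmC-/GDF11-) and PTGES3 at 78.3 ± 10.8, whose ranges overlapped. PTGES followed at 36.4 ± 10.8 and PTGS1 at 18.1 ± 2.71. PTGES2, PLA2G4A and PTGER2 came next, at 8.56, 7.17 and 5.55, each overlapping its neighbour. PTGER4 at 1.59 and PTGS2 at 1.19 overlapped, and HPGD was last at 0.105. In MmC+/GDF11- PTGES led at 367 ± 152, above the whole range of the next gene. PTGS2 at 62.2 ± 39.9, PTGES3 at 59.7 ± 3.71 and PTGIS at 57.9 ± 30.5 overlapped one another. PTGS1, PLA2G4A and PTGES2 followed at 17.3, 11.3 and 7.03, then PTGER2 at 4.44 and PTGER4 at 2.09, with HPGD at 0.00777. PTGS2 therefore moved from the ninth place to the second and PTGES from the third to the first. The orders with GDF11 were alike, except that PTGES3 at 77.6 stood before PTGIS at 73.5 in young cells, with overlapping ranges.

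None of the 10 genes was called for added GDF11 in young or in senescent cells. Here the edgeR test called 0% of all genes in either comparison, with 226 and 96 genes at an unadjusted p under 0.05. DESeq2 called 1 and 0 genes, no member among them. With the replicate block, 0 genes were called in senescent cells, where the replicate numbers pair the libraries. In young cells the members' differences ran from -0.20 (HPGD) to 0.17 (PLA2G4A) on the log2 scale, and in senescent cells from -0.67 (HPGD) to 0.08 (PTGER2), with all adjusted p at or near 1. The HPGD value in senescent cells rests on 15 counts without and 11 with GDF11. Its interval was -2.25 to 0.91, and the difference was 0.020 without replicate 4. No member's groups failed to overlap, against 0.890% of genes in young and 0.503% in senescent cells. For PTGES2 and PTGES3 the intervals were narrow, within -0.24 to 0.26 in both states, so a change of over 1.20-fold lay outside them. For PTGS2 they were wide in this fit, which has no replicate term, at -1.54 to 1.43 in young and -1.44 to 1.42 in senescent cells. In the latter a rise of up to 2.67-fold and a fall to 0.368 times lay inside the interval. The same-numbered pairs of senescent libraries were closer, with PTGS2 differences of -0.13, -0.23, 0.23 and -0.05 on the log2 scale. For PTGES the intervals were -0.71 to 0.78 and -0.83 to 0.65. The interaction term, which asks whether the response to MmC differs with GDF11, called 0% of genes (172 at an unadjusted p under 0.05). For PTGS2 it was 0.04 with an interval of -2.02 to 2.10 and for PTGES -0.12 with -1.17 to 0.93.

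The other genes of the pathway were taken from 6 lists of 60 genes, of which 49 had enough counts to be tested. The lists were chosen with earlier results of these data known, so their shares beside all genes are descriptions and no test. For MmC without GDF11, 17 of the 49 rose, 16 fell and 16 did not pass, against the shares given above for all genes. Their median difference was 0.10 on the log2 scale and that of all genes -0.01. ALOX12B and ALOX15B passed the filter on low counts only through the treated groups, and among the other 47 genes 15 rose and 16 fell. With GDF11, 18 of the 49 rose and 14 fell, and among the same 47 genes 16 rose and 14 fell. Without replicate 1 the counts, with ALOX12B and ALOX15B included, were 20 and 15 without GDF11 and 21 and 15 with it. For added GDF11, 0 of the 49 were called in either state.

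**Figure D4:**
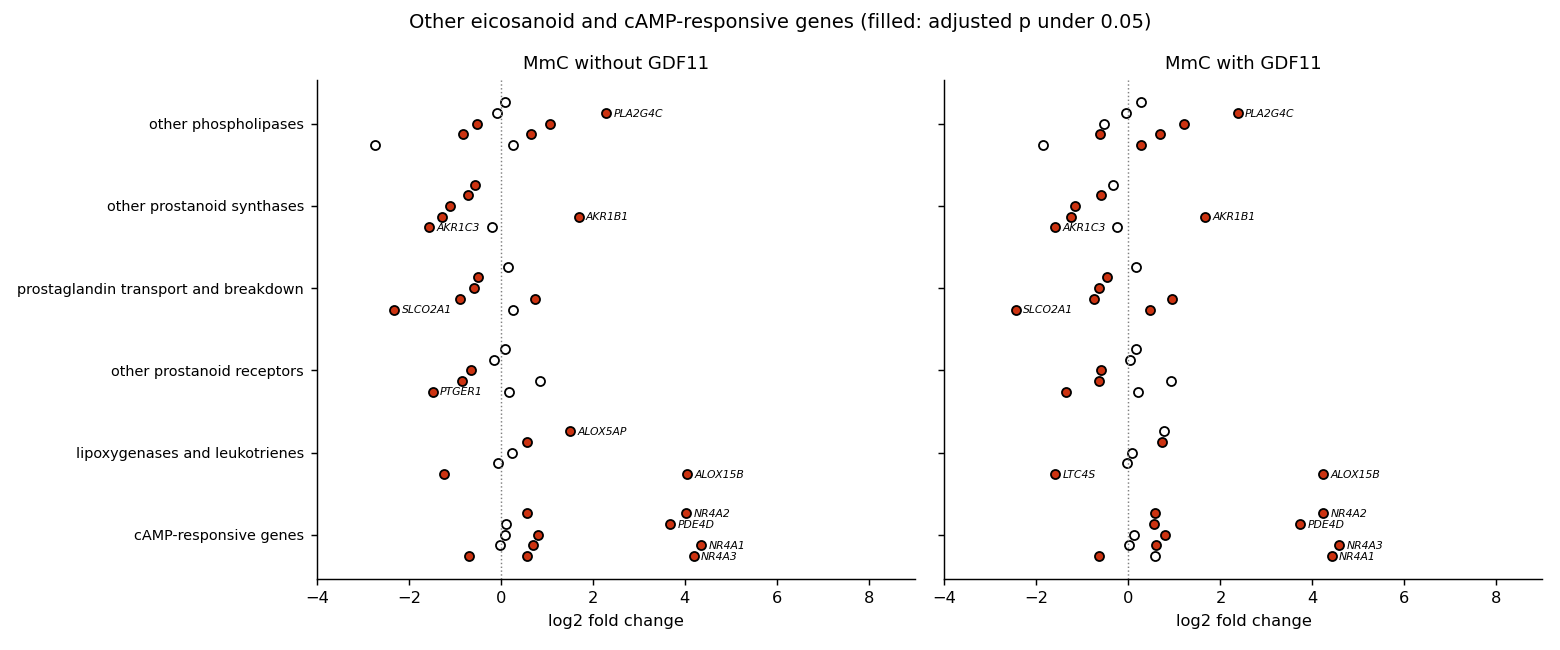
Log2 fold change after MmC (x axis) of the tested genes of the 6 other lists (rows), without GDF11 on the left and with it on the right. Each point is a gene, its height within a row only separates points, filled points passed the adjusted threshold, and ALOX12B is left out because no young library had a count. The NR4A genes, PDE4D and ALOX15B lie at 3.68 or more on the left, and most other prostanoid synthases lie below 0 in both panels.

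Among 9 other phospholipases and related genes tested, 3 rose and 2 fell without GDF11, with a median of 0.10 on the log2 scale against -0.01 for all genes, of which 22.9% were called higher and 22.4% lower. Without replicate 1 the counts were 3 and 2. PLA2G4C, a calcium-independent cytosolic phospholipase A2, went from 2.69, 1.41, 1.39 and 1.04 CPM to 7.76, 7.75, 7.76 and 8.52 CPM (4.89-fold, edgeR, adjusted p = 2.07e-05), with replicate 1 level with the others after treatment. PLD1, a phospholipase D, rose 2.10-fold (adjusted p = 3.65e-05) and PLA2G15, a lysosomal phospholipase, 1.57-fold (adjusted p = 0.0154). PLA2G15 loses its call without MmC+/GDF11- replicate 1 (adjusted p = 0.0524), the library in which it was highest at 87.0 CPM, and without all libraries numbered 2 (0.0543). PLA2G5, a secreted phospholipase, lay near 1 CPM and fell to 0.565 times (adjusted p = 0.0295). That call is lost without MmC-/GDF11- replicate 2 or 3 or MmC+/GDF11- replicate 2, 3 or 4 (adjusted p between 0.0654 and 0.0798). With GDF11, PLA2G5 did not pass (0.687 times, edgeR, adjusted p = 0.134).

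Of 7 other prostanoid synthases tested, 1 rose and 5 fell, against the same 22.9% and 22.4%, and the median was -0.72. Without replicate 1 the counts were 2 and 5. AKR1B1, an aldo-keto reductase that also acts as a PGF synthase, went from 185, 237, 185 and 227 CPM to 482, 795, 763 and 659.7 CPM (3.24-fold, edgeR, adjusted p = 1.20e-06). AKR1C3, another PGF synthase, fell from 118, 102, 80.7 and 63.4 CPM to 50.2, 22.5, 27.3 and 23.0 CPM (0.339 times, adjusted p = 8.52e-04). CBR3, a carbonyl reductase, fell to 0.413 times (adjusted p = 6.66e-07), and PRXL2B, a prostamide and PGF synthase at under 1 CPM, to 0.465 times (adjusted p = 0.0449). PRXL2B loses its call without any single library numbered 2, 3 or 4 (adjusted p between 0.0658 and 0.135). The PGD2 synthases PTGDS and HPGDS were not tested, with at most 2 and 16 counts in a library.

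In the list of prostaglandin transport and breakdown, 1 of 7 genes tested rose and 4 fell (22.9% and 22.4% of all genes), with a median of -0.50. Without replicate 1, 3 rose and 4 fell. SLCO2A1, the prostaglandin uptake transporter that delivers PGE2 to HPGD, went from 1.25, 1.38, 1.56 and 1.74 CPM to 0.172, 0.338, 0.290 and 0.391 CPM. It fell by 2.31 on the log2 scale, to 0.201 times (edgeR, adjusted p = 3.57e-05), so this low-level gene moved in the same direction as HPGD. ABCC4, a transporter that exports prostaglandins, fell to 0.667 times (adjusted p = 0.00109), AKR1C2 to 0.541 times (adjusted p = 0.00191), and PTGR2, a prostaglandin reductase acting after HPGD, rose 1.67-fold (adjusted p = 2.36e-04).

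Of 7 other prostanoid receptors tested, 0 rose and 3 fell (22.9% and 22.4% of all genes), with and without replicate 1, and the median was -0.15. PTGER1 (EP1) fell from 5.02, 4.12, 3.42 and 3.34 CPM to 1.86, 2.03, 0.971 and 0.840 CPM (0.359 times, edgeR, adjusted p = 7.29e-04). PTGFR, the PGF2 alpha receptor, fell to 0.560 times (adjusted p = 0.00758) and TBXA2R, the thromboxane receptor, to 0.638 times (adjusted p = 0.0323). The call for TBXA2R is lost without MmC-/GDF11- replicate 1 or 2 or MmC+/GDF11- replicate 2, 3 or 4 (adjusted p between 0.0529 and 0.104), and that for PTGFR without all libraries numbered 3 (0.0790).

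In the lipoxygenase and leukotriene list, 4 of 7 genes tested rose and 1 fell (22.9% and 22.4% of all genes), with a median of 0.57. Without replicate 1, 4 rose and 0 fell. ALOX12B and ALOX15B were tested only because of the treated libraries, where they are high, and are given with no test. Of the other 5 genes 2 rose and 1 fell, and the median was 0.24. LTB4R, a leukotriene B4 receptor at 2.74 to 6.60 CPM, was 1 of these 2, and the other genes called lay under 1 CPM. ALOX12B, a lipoxygenase of the epidermis, had 0 counts in all 8 young libraries, 70 counts in MmC+/GDF11- and 94 in MmC+/GDF11+. It was at least 22.9-fold higher without and 23.9-fold higher with GDF11, set against 3 counts over the group. ALOX15B, which makes 15-HETE, went from 0.0130, 0.0311, 0.0262 and 0.0386 CPM to 0.780, 0.536, 0.413 and 0.207 CPM (16.5-fold in the fit, and 11.4-fold without replicate 1). ALOX5AP, the 5-lipoxygenase activating protein, rose 2.85-fold (adjusted p = 0.0204), but ALOX5 itself had 1 count over all libraries. The call for ALOX5AP is lost without MmC-/GDF11- replicate 3 or 4 or MmC+/GDF11- replicate 2 or 3 (adjusted p between 0.0516 and 0.0795). With GDF11, ALOX5AP did not pass (1.71-fold, edgeR, adjusted p = 0.202). LTC4S, the leukotriene C4 synthase, fell to 0.427 times (adjusted p = 0.0258) and missed the threshold without replicate 1 (adjusted p = 0.0936), or without any one of MmC-/GDF11- replicates 1 and 2 and MmC+/GDF11- replicates 3 and 4 (between 0.0532 and 0.0961).

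The cAMP-responsive list holds genes that EP2 and EP4 signals are known to raise, along with many other stimuli. Of 12 tested, 8 rose and 1 fell, with and without replicate 1, against 22.9% and 22.4% of all genes. The median was 0.64. As this list was chosen with earlier results of these data known, these shares are no test of it. NR4A1, an immediate early nuclear receptor, went from 3.30, 3.84, 2.78 and 4.35 CPM to 5.97, 102, 96.2 and 87.9 CPM (20.4-fold, edgeR, adjusted p = 4.96e-04). The related NR4A3 and NR4A2 rose 18.3-fold and 16.3-fold, and PDE4D, a phosphodiesterase that breaks down cAMP, 12.8-fold, from 1.56, 2.08, 2.42 and 2.52 CPM to 4.51, 33.9, 33.3 and 38.6 CPM. In these 4 genes, as in PTGS2, replicate 1 after MmC was far below the other treated libraries and still above the young ones. Without replicate 1 the rises were 25.9-fold for NR4A1, 29.2-fold for NR4A3, 21.8-fold for NR4A2 and 15.1-fold for PDE4D.

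The genes whose profiles over the 16 libraries were nearest to each changed member were looked up among 11882 genes with a mean log2 CPM of at least 1. The measure was the root mean square difference of centred log2 CPM. For PTGS2, whose profile had an SD of 2.94, they were AREG (0.329), which encodes the EGF receptor ligand amphiregulin, LIF (0.467), a cytokine, and TFPI2 (0.491), a protease inhibitor. AREG went from a mean of 1.59 CPM in MmC-/GDF11- to 66.4 CPM in MmC+/GDF11-, with 11.5 CPM as the lowest treated library. LIF went from 5.01 to 419.8 CPM and TFPI2 from 62.1 to 2971 CPM. For PTGES (SD 1.73) the nearest were FBXO32 (0.233), DNER (0.264) and PTPN22 (0.326). For PTGES3 (SD 0.230) they were IDH3B (0.0585), SF3A3 (0.0600) and XRCC5 (0.0606), and for PTGER4 (SD 0.339) GALNT7 (0.138), POM121C (0.144) and PDGFC (0.144). HPGD (SD 1.95) was nearest to KIF20A (0.441), SAPCD2 (0.476) and PLK1 (0.499), and KIF20A went from a mean of 84.5 CPM to 7.39 CPM. HPGD itself, at 0.771 CPM or less in every library, lay below the level asked of the other genes. Its treated libraries held 0 to 6 counts. Their log2 values, and so the SD and these distances, depend heavily on the prior count of 2 used for log2 CPM. Since the 16 points share groups and libraries, these are descriptions with no test.

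**Figure D5:**
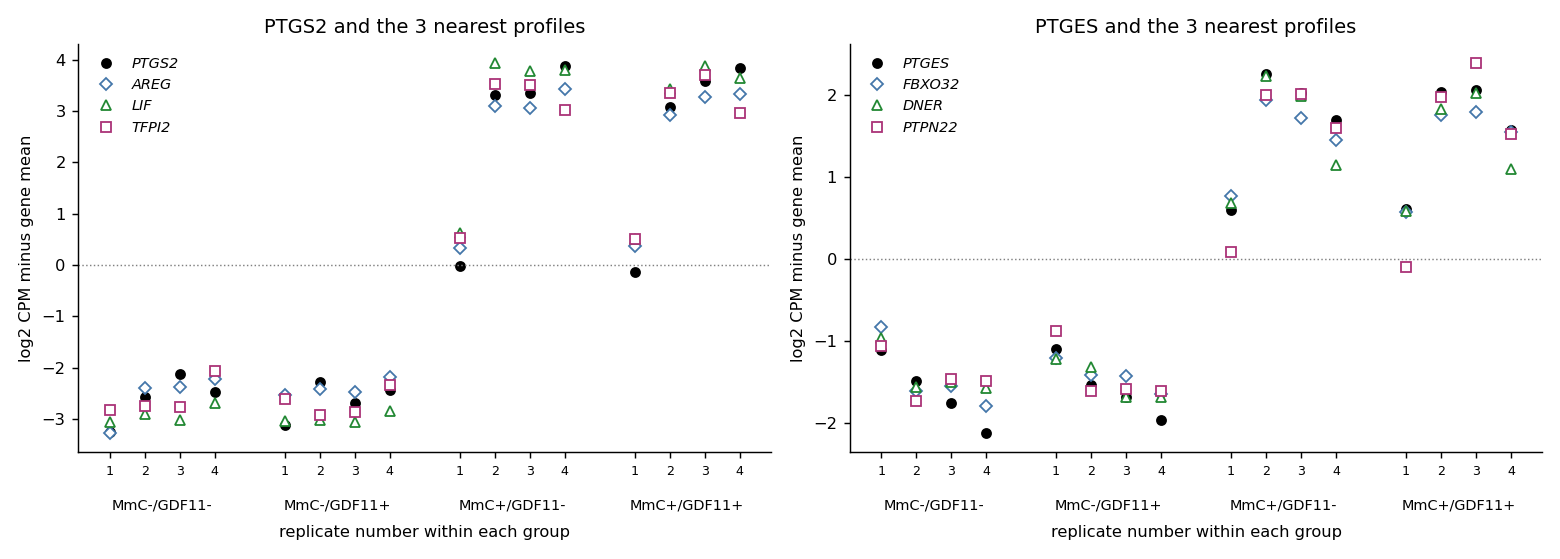
Log2 CPM minus the gene's own mean (y axis) in each library (x axis, replicates 1 to 4 within each group) for PTGS2 and PTGES (filled) and the 3 genes with the nearest profiles (open). In the left panel PTGS2, AREG, LIF and TFPI2 share the intermediate level of replicate 1 after MmC.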

How the data were processed

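Poly(A) RNA of 16 ASC52telo cultures was sequenced with a directional kit, all in 1 run per the labels. HISAT2 2.2.1 was used by the authors for alignment to hg38, and featureCounts 2.0.1 for counting per gene of GENCODE V38, and the deposited table holds these raw counts, not normalized. The strand and multi-mapping settings of the counting are not given in the sources used here. The names, positions and exon lengths were taken from GENCODE v44, in which all but 186 of 60649 identifiers matched. Shared sequence with 261 alternate contigs, which counters can treat as a second locus, covered 7.58% of the 31-base words of PTGES, 7.91% of PTGIS, 5.40% of PTGES2, 2.94% of PTGES3 and 0 of the other members.

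Counts were tested in R 4.3.3 with edgeR 4.0.16 (filterByExpr, TMM, robust quasi-likelihood fit, 1 mean per group over all 16 libraries), with Benjamini-Hochberg adjustment over 19103 genes and a threshold of 0.05. The fit was also run on simulated counts. These held no offset of replicate 1, so they cannot show how the fit handles it. RPKM is CPM per kilobase of exon. Intervals of count ratios cover counting error only. The members and lists were chosen with earlier results of these data known. The pathway genes named were up to 4 per list, those called for MmC without GDF11 with the largest differences. The likeness rule is given with its result.

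Replicate numbers were taken as pairing where the deviations of same-numbered libraries from their group means correlated above 0.1 for every number. The lowest correlation was 0.113 for MmC without GDF11 and 0.0293 for MmC with GDF11. It was 0.0982 for GDF11 in young cells and 0.448 for GDF11 in senescent cells. By this rule the first and last comparisons are paired. The main fit has no replicate term in any comparison, and the block is given as an alternative. Alternatives were no filter, RLE scaling, upper-quartile scaling, at least 10 counts in every library, a replicate block, DESeq2 1.42.0, limma-voom 3.58.1, a test against more than 2-fold (glmTreat), 1 surrogate variable (sva 3.50.0), only the libraries compared, and the omission of each library and each replicate number. Their application to the pathway genes was added after the data were seen.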

Additional observations from a re-analysis of the deposited data

Results flagged for a closer look

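In 40 sets of 4 libraries (10 genes in 4 groups), 3 had 1 library set off from the rest by more than Dixon's 95% critical value, and chance flags about 1 in 20 such sets. All 3 were replicate 1 after MmC. PTGES3 was at 184 CPM in replicate 1 of MmC+/GDF11-, the next library being at 207 CPM, and at 188 CPM in replicate 1 of MmC+/GDF11+, the next being at 209.5 CPM. PTGER2 was at 3.90 CPM in replicate 1 of MmC+/GDF11-, the next being at 12.5 CPM. Replicate 1 was also the lowest treated library for PTGS2, PTGES, PTGS1 and PLA2G4A in both MmC-treated groups and the highest for PTGIS.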

How the results depend on the processing

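The alternatives are listed with the processing steps. PTGS2 and PTGES kept their call and direction for MmC in both comparisons in every setting. HPGD, which passed the filter through its young libraries alone, stayed lower in every setting that fitted it. It was left out under the minimum of 10 counts in every library. HPGD is included in the counts of members that follow. The number of members called for MmC without GDF11, 4, became 8 with the replicate block and 7 with 1 surrogate variable, and ranged from 3 to 6 when libraries or replicate numbers were left out. With GDF11 it was 5, became 3 under glmTreat and ranged from 3 to 6, with 3 without replicate 3. Under the replicate block, where the numbers are not shown to pair the libraries, it was 6. The pathway genes called, 33 without and 32 with GDF11, became 9 in both under glmTreat and ranged from 20 to 36 in both, with 20 without replicate 3. These changes follow partly from fewer libraries or a stricter null. Otherwise the cause was not tested. For the added GDF11 and the interaction the replicate block changed no call, and no setting called a member.

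Differences near 0 changed sign under some settings. PTGS1 for MmC with GDF11 was -0.016 with the replicate block, -0.048 with limma-voom and -0.14 with 1 surrogate variable. For GDF11 in senescent cells PLA2G4A was 0.0027 with limma-voom and PTGS1 0.0016 without a filter. PTGS2 in the interaction was -0.019 with the replicate block and -0.062 with limma-voom. Sign also changed in places when libraries were left out, and the ranges of these log2 differences follow. For MmC without GDF11 these were PTGS1 -0.27 to 0.16. For MmC with GDF11 these were PTGS1 -0.082 to 0.30, PTGER2 -0.37 to 0.095. For GDF11 in young cells these were PTGS2 -0.22 to 0.14, PTGES -0.15 to 0.23, PTGES2 -0.048 to 0.11, PTGES3 -0.10 to 0.048, PTGIS -0.35 to 0.31, PTGER2 -0.19 to 0.14, PTGER4 -0.25 to 0.032. For GDF11 in senescent cells these were PLA2G4A -0.24 to 0.22, PTGS1 -0.22 to 0.23, PTGS2 -0.38 to 0.37, PTGES -0.33 to 0.15, PTGES2 -0.035 to 0.11, PTGES3 -0.021 to 0.065, PTGIS -0.35 to 0.44, HPGD -1.15 to 0.020, PTGER2 -0.20 to 0.37, PTGER4 -0.050 to 0.11. For the interaction these were PLA2G4A -0.41 to 0.043, PTGS1 -0.092 to 0.36, PTGS2 -0.33 to 0.42, PTGES -0.37 to 0.11, PTGES2 -0.087 to 0.093, PTGES3 -0.025 to 0.13, PTGIS -0.30 to 0.55, HPGD -0.96 to 0.11, PTGER2 -0.17 to 0.41, PTGER4 -0.021 to 0.26. None of these values of changed sign was called. PTGER2, named in the report, was called lower for MmC with 1 surrogate variable. At 0 to 80 counts a library, depth limits HPGD alone among the members.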

Other observations

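Secreted factors of the senescent state that belong to no list above were higher in the same libraries, chosen here after their values were seen and given without a test. IL6 lay at 2.48 to 6.73 CPM in the 8 young libraries and at 134 to 911 CPM in the 8 treated ones, with 146 and 134 CPM in replicate 1 and 663 CPM or more in the other 6. IL1B, an inflammatory cytokine, lay at 3.99 to 6.36 CPM and at 75.1 to 366 CPM. CXCL8, the chemokine IL-8, lay at 13.3 to 26.6 CPM and at 1011 to 5141 CPM. CDKN1A differed from these in its order over the replicates, with replicate 1 as the highest of each group, at 2031 CPM in MmC+/GDF11- and 2007 CPM in MmC+/GDF11+.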
